A study of Drosophila melanogaster with 6 samples.

Results

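The regions described here were called open in control midgut progenitors of Drosophila melanogaster and in no sample with RNAi against the linker histone H1. ATAC-seq uses the Tn5 transposase to cut and tag DNA that is not packed away. It had been run on 6 samples, 3 control and 3 H1 RNAi, and each sample had its own list of peaks, that is, of stretches where the cuts were denser than the background. Peaks overlapping by 1 bp or more over the 6 lists were merged into 11854 regions. Of these, 669 regions, or 5.64%, had a peak in 2 or 3 of the 3 controls and no peak in any of the 3 H1 RNAi samples; they are called control-only regions below. The calls that chose them are the comparison of controls with H1 RNAi, so their absence from the H1 RNAi lists is the rule and not a result, and no test was made of it. The reverse rule, a peak in 2 or 3 H1 RNAi samples and in no control, held for 125 regions, or 1.05%, called H1 RNAi-only regions below.

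H1 binds the nucleosome where DNA enters and leaves it and is known for packing nucleosomes into compact fibres. In the adult fly midgut, intestinal stem cells divide to renew themselves and to give enteroblasts, which mature into absorptive enterocytes. Stem cells also give rise to the hormone-secreting enteroendocrine cells, and escargot, a Snail-family repressor, marks the stem cells and enteroblasts. Open DNA at a gene's start or within its body often holds a promoter or an enhancer, the elements to which transcription factors bind.

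All flies were 3-day-old females that carried esgts, the escargot driver held off by a temperature-sensitive repressor, and UAS-GFP. The labels name nothing else for the controls, and the other group carried UAS-H1 RNAi 1 in addition. Flies spent 2 days at 18 °C and then 4 days at 29 °C on poor food, which switches on GFP in both groups and the RNAi in one. Each replicate, lettered A, B or C, was a pool of 70 guts from which 50000 to 100000 GFP-positive cells were sorted. The RNAi group rests on 1 RNAi line, and the loss of H1 itself cannot be read from peak lists. Since each sample pools stem cells and enteroblasts, a region open in fewer cells and one less open in every cell cannot be told apart. Of 16 marker genes of intestinal progenitors, 12 to 15 had a peak within 500 bp of a gene end in each control, and 12 to 14 in each H1 RNAi sample. Of 47 genes of enterocytes and digestion, 10 to 19 had one in the controls and 12 to 16 in the H1 RNAi samples, and of 26 enteroendocrine genes 4 to 8 and 4 to 7.

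The lists differed in length and in background within both groups, and most of the control-only regions came from 1 pair of controls. Controls A, B and C had 6142, 10872 and 8602 peaks, and H1 RNAi A, B and C had 6564, 9827 and 7261. The genome-wide background, in overlapping fragments per base, was 5.04, 20.7 and 10.1 in the controls and 5.26, 4.83 and 8.28 in the H1 RNAi samples. It reflects depth and the length to which fragments were extended, and it was highest in control B and control C. At that background the lowest fold that was called was 2.65, 1.75 and 2.07 in the controls and 2.56, 2.57 and 2.26 in the H1 RNAi samples. Control B and control C were thus the lists in which the smallest folds over background reached the list, and their part in the result was not tested.

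Control B and control C alone gave 559 of the control-only regions, or 83.6%. Another 73 regions, 0.616% of all regions and 10.9% of the control-only set, were called in all 3 controls. Controls A and B gave 31 and controls A and C gave 6. Control A therefore had a peak in 110 of the 669 regions, control B in 663 and control C in 638.

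Combinations that mix the groups shared regions too. Among the pairs, control B with H1 RNAi B, and no other sample, had 447 regions, next to the 559 of controls B and C and ahead of the 76 of control B with H1 RNAi C. Among the triples, controls B and C with H1 RNAi B had 570 regions, more than the 73 of the 3 controls, and controls B and C with H1 RNAi C had 115. The 3 H1 RNAi samples alone shared 22 regions, or 0.186%. The 2 largest pairs and the largest triple were all drawn from the 3 longest lists, control B, H1 RNAi B and control C.

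**Figure D1:**
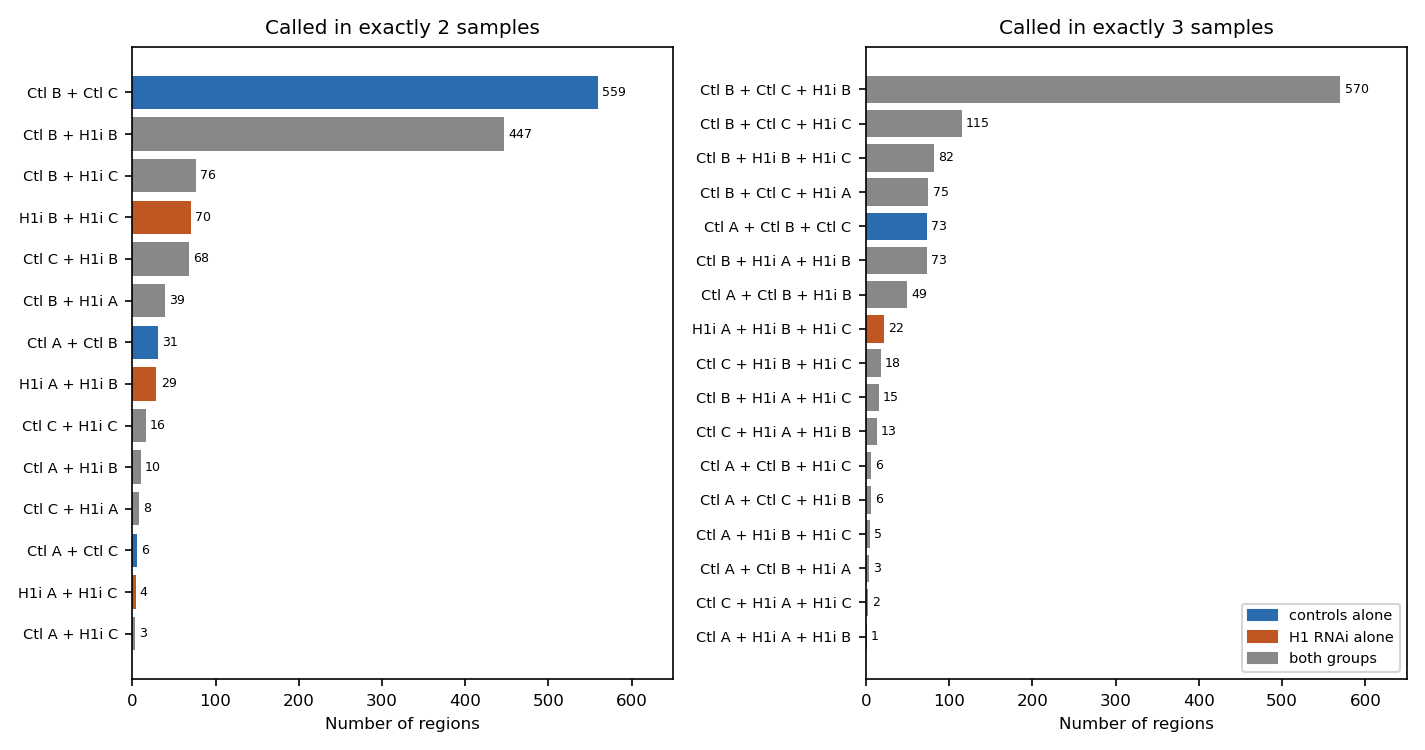
Number of regions (horizontal axis) called in exactly 2 samples (left) and exactly 3 samples (right), with each bar labelled by its samples (Ctl, control; H1i, H1 RNAi; combinations with no region are not drawn). Blue bars hold controls alone, orange bars H1 RNAi samples alone and grey bars both groups; the longest bars are controls B and C (559) on the left and controls B and C with H1 RNAi B (570) on the right.

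On the 2 edges of the rule, 1026 regions had a peak in 2 or 3 controls and in 1 H1 RNAi sample, and 1978 had a peak in 1 control and in no H1 RNAi sample. The H1 RNAi sample that kept the 1026 regions out was B for 775 of them, or 75.5%, C for 155 and A for 96. Regions called in all 6 samples numbered 4366.

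Within their own lists the peaks of the control-only regions ranked low. The rule leaves out the regions that all lists call, and no ranks are given here for other regions missing from some lists. A low rank is thus not shown to be particular to this set. A peak's rank is given as its percentile by the authors' −log10 q, the strength of the evidence that their peak caller attached to it, where 100 is the strongest peak of that list. The median percentile of the peaks in control-only regions was 12.1 in control A (110 peaks), 21.9 in control B (684 peaks) and 14.6 in control C (640 peaks). No such peak ranked above percentile 63.9 in control A, 72.9 in control B or 74.1 in control C. Below the middle of the list lay 95.5% of these peaks in control A, 95.9% in control B and 97.8% in control C. The authors' fold enrichment over local background had a median of 2.93, 2.31 and 2.70 in the same order, beside 3.90, 3.04 and 3.93 over all peaks of those lists. The 73 regions called in all 3 controls had median percentiles of 13.7, 34.8 and 22.7, so they ranked higher in lists B and C than the regions called in 2 controls, at 20.8 and 13.8.

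**Figure D2:**
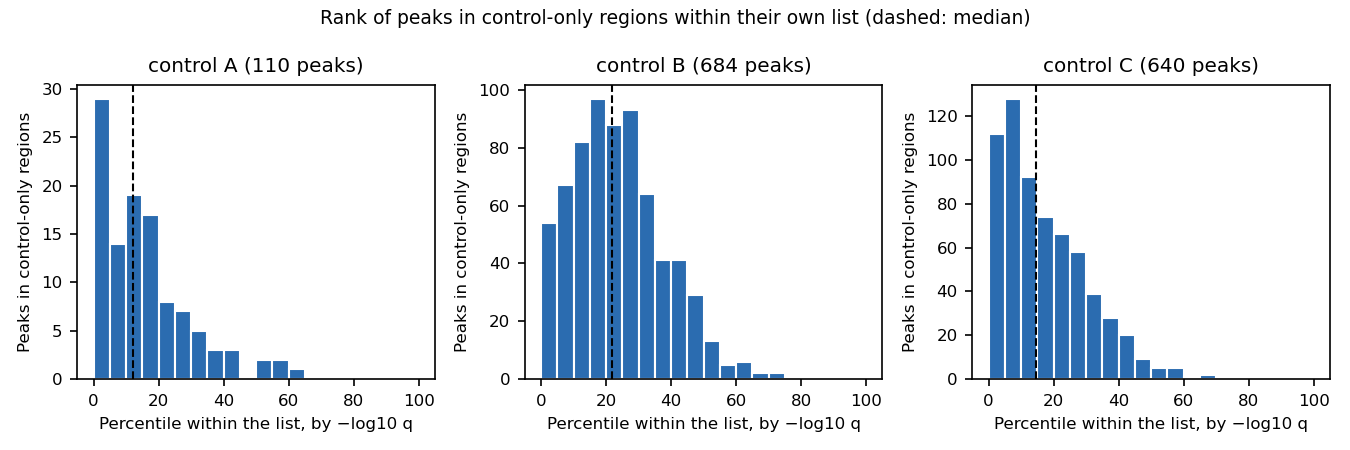
Number of peaks in control-only regions (vertical axis, a scale of its own for each panel) by percentile within the control's own list by −log10 q (horizontal axis, bins of 5), for controls A, B and C; dashed lines mark the medians. The medians are 12.1, 21.9 and 14.6, and no peak lies above 74.1.

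The control-only regions lay in gene bodies more often than at gene ends, as did the regions called in all 6 samples. The gene table used gives a start and an end for each gene but no strand or exons, so a gene end here is either end, within 500 bp of the summit of the region's strongest peak, and exons and introns are not told apart. Of 658 regions on chromosomes with annotated genes, 344, or 52.3% (exact 95% binomial interval 48.4 to 56.2), lay in a gene body. At a gene end lay 31.2% (27.6 to 34.8). Between genes, more than 2000 bp from any protein-coding gene, lay 82, or 12.5% (10.04 to 15.2), and 27 lay in the flanks in between. These intervals cover counting error only, and regions are not replicates of a condition. The share at gene ends was 49.6% where peaks in all lists needed a −log10 q of at least 10, 45.9% without H1 RNAi B and 43.9% with a fold of at least 4.

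The H1 RNAi-only regions had a like share at gene ends, 29.9% (21.8 to 39.1) of 117. Over all regions the share was 43.1%, and over those called in all 6 samples it was 42.0% (40.5 to 43.4). In gene bodies lay 43.3% of all regions, 47.0% of those called in all 6 samples and 46.2% of the H1 RNAi-only regions. Between genes the shares were 8.94%, 7.17% and 15.4% in the same order. Just outside the rule the shares at gene ends diverged. Regions called in 2 or 3 controls and 1 H1 RNAi sample had 54.3% (51.1 to 57.4) at gene ends, whereas those called in 1 control alone had 34.2% (32.1 to 36.4). The 73 regions called in all 3 controls had 25.7% (16.01 to 37.6) at gene ends and 57.1% in gene bodies.

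**Figure D3:**
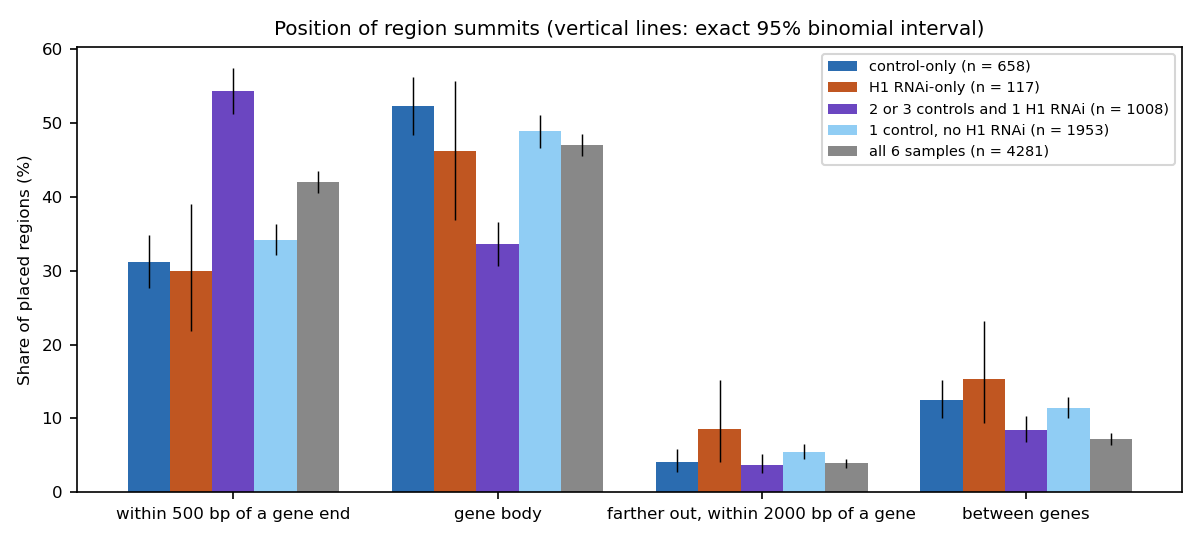
Share of placed regions (vertical axis, %) whose summit lies within 500 bp of a gene end, in the rest of a gene body, farther out but within 2000 bp of a gene, or between genes, for 5 sets of regions (colours); vertical lines are exact 95% binomial intervals. Control-only regions have 31.2% at gene ends, and regions called in 2 or 3 controls and 1 H1 RNAi sample have 54.3%.

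Control-only regions had a median width between those of H1 RNAi-only regions and of regions called in all 6 samples. They ran from 202 to 1623 bp with a median of 484 bp and quartiles of 355 and 659 bp, and 42 of them exceeded 1000 bp. Together they covered 359.53 kb. With a fold of at least 4 in all lists the median was 739.5 bp. H1 RNAi-only regions had a median of 233 bp and regions called in all 6 samples one of 926 bp. Regions with 1 H1 RNAi peak besides the controls had 507.5 bp, and those called in a single control had 256 bp. A merged region spans all of its peaks, so its width can grow with the number of lists that called it. Control-only regions called in 2 controls had a median of 475.5 bp, and those called in 3 had 527 bp. The lists themselves differed in width: the median peak was 364, 518 and 572 bp wide in controls A, B and C and 416.5, 323 and 335 bp in the H1 RNAi samples, and the part of this in the widths of the regions was not tested. The peaks inside control-only regions had median widths of 183.5, 363 and 367 bp in controls A, B and C.

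**Figure D4:**
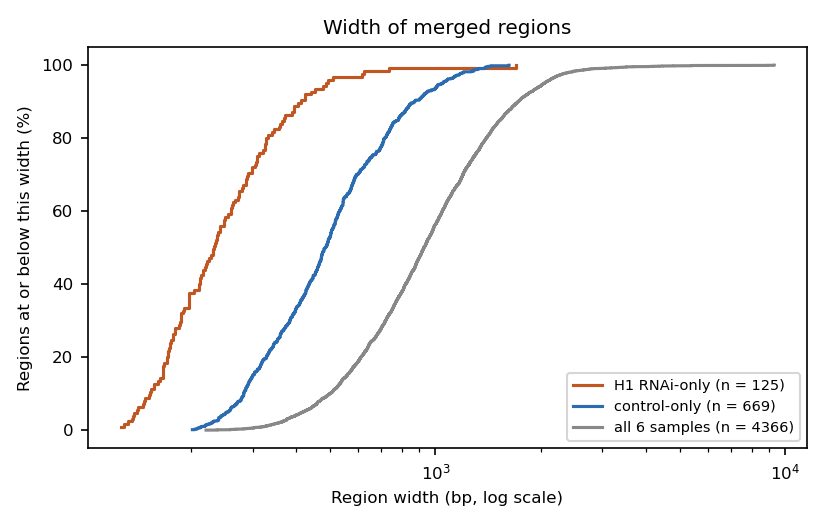
Cumulative share of regions (vertical axis, %) at or below a given width (horizontal axis, bp, log scale) for H1 RNAi-only, control-only and all-sample regions. The 3 curves do not cross below 1000 bp; the medians are 233, 484 and 926 bp.

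The control-only regions were spread along the major chromosome arms. They made up 5.08% of the regions on X, 6.501% on 2L, 5.39% on 2R, 5.73% on 3L and 5.83% on 3R, and 4 of the 117 regions on chromosome 4. Their median distance to the nearest H1 RNAi peak was 3862 bp, with quartiles of 1573 and 8091 bp. Within 1000 bp of such a peak lay 113 regions, or 16.9%. The nearest other control-only region was a median of 53466 bp away.

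Most control-only regions lay in loci that had other peaks in the H1 RNAi samples. A locus is a protein-coding gene with 2000 bp on either side, and 582 of the regions, or 87.0%, lay in 1 or more, against 89.4% of all regions. Of the 582, 494, or 84.9%, lay in the locus of a gene with another peak in at least 1 H1 RNAi sample, and 417, or 71.6%, in that of a gene with another peak in all 3. The loci belonged to 922 genes, of which 290 had no H1 RNAi peak. Among the 290 were 226 with no peak of any sample, controls included, outside the control-only regions. The shares of 84.9% and 71.6% and the counts of 290 and 226 were not taken over all regions or all genes. None of them is thus shown to be particular to the control-only set. The 922 genes had a median length of 4406 bp. It was 3745 bp over genes with a region called in all 6 samples in their locus. Over all genes with any region in their locus it was 2637 bp, and over all 13946 protein-coding genes 2161 bp. Genes of H1 RNAi-only regions had a median of 6300 bp. A peak outside the control-only regions lay in the locus of 50.3%, 74.2% and 65.4% of the 922 genes in controls A, B and C and of 58.5%, 67.6% and 53.8% in H1 RNAi A, B and C. Over all protein-coding genes these shares were 42.0%, 66.5% and 58.3%, and 50.0%, 60.8% and 45.2%. The shares were thus higher at the 922 genes in each of the 6 samples; long loci have more room for a peak, and the part of gene length was not tested.

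Among regions called in all 3 controls at a gene known by more than a CG number, the highest-ranked lay in the gene body of plum, which encodes an immunoglobulin-superfamily receptor known from axon pruning. It spanned 839 bp (dm6, chr3R:26505303-26506141), and its peak ranked at percentile 58.5, 45.8 and 59.0 in controls A, B and C, with folds of 4.18, 2.89 and 4.13. The plum locus held 9 regions, and H1 RNAi A, B and C had peaks in 4, 7 and 5 of them. A region in the body of Lasp, a LIM and SH3 protein that binds actin (chr3L:16693724-16694287; the gene CG43954 overlaps there), ranked at 43.7, 61.8 and 43.5. A second control-only region lay in the same gene (chr3L:16699350-16700160), called in controls B and C at percentiles 34.2 and 32.7, and 113 bp from an H1 RNAi peak. The body of cher, which encodes the actin crosslinker filamin, held a region of 294 bp (chr3R:17113767-17114060) at 21.5, 43.7 and 17.2. Control B was highest for both the cher region and the first Lasp region.

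Transcription and signalling genes followed. GATAe, which encodes a GATA factor of the midgut, had a region of 649 bp in its body (chr3R:16014465-16015113) at percentiles 23.1, 63.7 and 42.1. The 3 other regions of the GATAe locus were called in all 6 samples. The region in shn, whose zinc-finger protein carries out repression downstream of the BMP ligand Dpp (chr2R:11204483-11204939), ranked at 26.9, 43.7 and 22.9 and lay 436 bp from a region called in all 6 samples. In S6k, the ribosomal S6 kinase of the TOR pathway (chr3L:5807409-5808112; overlapping CG42272), the percentiles were 18.4, 46.7 and 33.1. The span of the gene Su(Tpl) lies within that of Mi-2, the ATPase of the NuRD remodelling complex. A region in the body of both (chr3L:19900191-19900712) ranked at 15.9, 49.9 and 32.8. In GATAe, S6k and Mi-2, the percentile was highest in control B and lowest in control A. Folds in controls A, B and C were 2.80, 2.89 and 2.80 for GATAe and 2.85, 2.57 and 2.82 for S6k. For Mi-2 they were 2.40, 2.06 and 2.11.

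The other 5 of these 12 regions ranked at their lowest between percentile 16.2 and 24.7. The widest was a region of 1392 bp (chr3R:19093608-19094999) at 24.7, 51.2 and 32.2. It touches the loci of cdi, a protein kinase gene, of mRpL55, a mitochondrial ribosomal protein gene, of ATPsynD, an ATP synthase subunit gene, and of CG6040, so it cannot be assigned to 1 gene. The region in IP3K1, an inositol trisphosphate kinase gene (chr2L:9785827-9786233), ranked at 23.1, 33.0 and 20.4. In su(r), which encodes a pyrimidine-degrading dehydrogenase (chrX:9200981-9202156), the values were 19.0, 41.2 and 24.1, and an H1 RNAi peak lay 179 bp away. The region near SkpB and Smyd4-4 (chr2R:12140302-12140845) had its lowest percentile in control B, as plum did, at 29.4, 16.6 and 28.5. In Ptpmeg, a tyrosine phosphatase gene that overlaps mthl10 and mth (chr3L:341271-341726), the values were 16.2, 47.9 and 41.2.

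**Figure D5:**
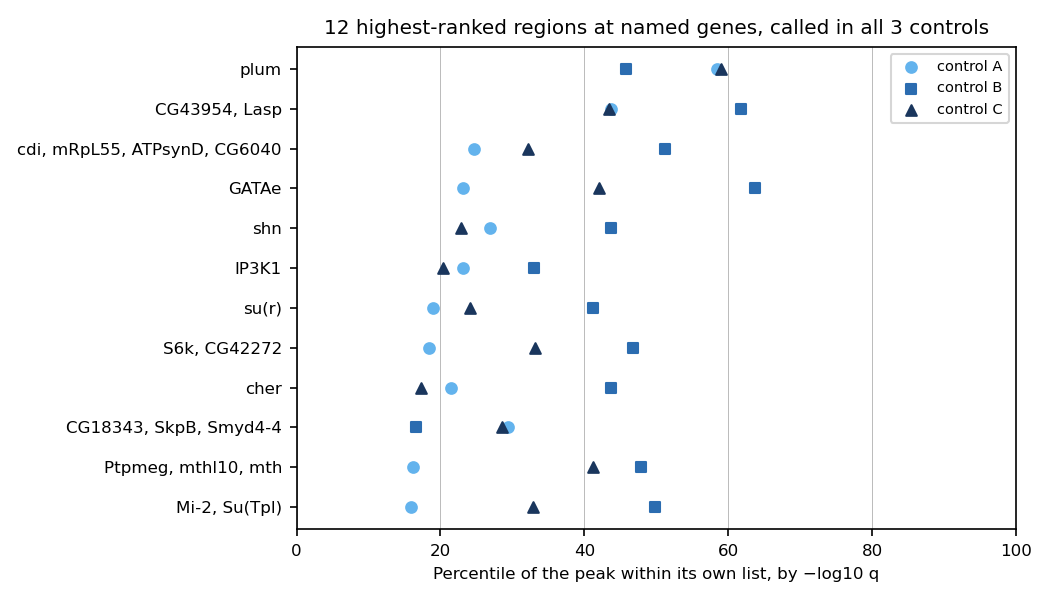
Percentile of the peak within its own list by −log10 q (horizontal axis) in controls A (circles), B (squares) and C (triangles) for the 12 highest-ranked control-only regions called in all 3 controls at genes known by more than a CG number (vertical axis). The plum and Lasp regions lie above percentile 43 in all 3 controls, and the other 10 have at least 1 control below 30.

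Regions called in 2 controls included some of the highest-ranked of the whole set. At a gene end of Blimp-1, a zinc-finger repressor gene induced by the steroid ecdysone, a region of 388 bp (chr3L:5630570-5630957) ranked at percentile 71.3 in control B and 69.4 in control C, with folds of 4.76 and 6.28, and was 7710 bp from the nearest H1 RNAi peak. Its locus held 3 regions, of which H1 RNAi A, B and C had 1, 2 and 2. In chinmo, a BTB zinc-finger gene known for timing and for sex identity of stem cells (chr2L:1692651-1693400), the percentiles were 62.1 and 49.9 and the folds 4.25 and 4.78. The chinmo locus held 8 regions, of which controls A, B and C had 3, 7 and 6 and H1 RNAi A, B and C had 5, 5 and 4. Both genes thus had peaks elsewhere in their loci in all 3 H1 RNAi samples.

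Other regulators in this group were ush, a cofactor of GATA factors (chr2L:510489-510881), at percentiles 47.4 and 53.8 in controls B and C. The region in mam, which encodes the Mastermind co-activator of Notch (chr2R:14000732-14001127), ranked at 44.5 and 59.3, and H1 RNAi A, B and C had peaks in 8, 10 and 9 of the 12 regions of its locus. In CrebA, a bZIP activator gene of the secretory pathway (chr3L:15547258-15548083), the percentiles were 66.3 and 44.2, and in scyl, which encodes an inhibitor of TOR signalling (chr3L:11253711-11254785), they were 48.4 and 43.2.

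Metabolic and structural genes made up the rest. The region between Gp93, an endoplasmic reticulum chaperone gene, and Nep7, a neprilysin-family gene (chr3R:27953855-27954199), lay at a gene end of CG4951. It ranked at 58.0 and 49.0. The region in the body of ChAT, the choline acetyltransferase gene of cholinergic neurons (chr3R:18726574-18727902), also lay at a gene end of CG7715. Its percentiles were 44.6 and 47.4. The region in GlcAT-P, a glucuronyltransferase gene (chr3L:11185259-11185594), ranked at 53.7 and 41.5. Beside Ebp (chr2R:25177032-25177973) the values were 52.8 and 44.5, and beside Edg84A, a cuticle protein gene (chr3R:6683301-6683848), 59.1 and 42.5. For both Ebp and Edg84A this was the single region of the locus in any of the 6 samples. The region in rudhira, a cytoskeletal gene of migrating cells (chrX:11819507-11819721), was the one of these 12 called in controls A and B, at 52.6 and 48.4. All the others were called in controls B and C.

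The 5 widest control-only regions at genes known by more than a CG number were in dpr12, an immunoglobulin-superfamily gene (1623 bp, chr2R:5812019-5813641), Nckx30C, a sodium, potassium and calcium exchanger gene (1441 bp), GEFmeso, an exchange factor gene (1414 bp), Dscam3, a cell adhesion gene (1392 bp), and the cdi neighbourhood above. Apart from the cdi region, these were called in controls B and C and ranked between percentiles 11.2 and 32.4. The Dscam3 region was 32618 bp from the nearest H1 RNAi peak, and that in Nckx30C 20258 bp, whereas the GEFmeso region was 642 bp away.

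At 50 genes known by more than a CG number the locus, flanks included, held several control-only regions, and neighbours with overlapping loci share some of them. At 42 of these genes there were 2, and 8 genes had more. These 8 were long genes, from 42381 bp for nuf to 171340 bp for pum. The locus of jing, a zinc-finger factor gene of 119787 bp, had 5 of its 24 regions in the set, and H1 RNAi A, B and C had peaks in 13, 14 and 13 of the 24, beside 14, 20 and 19 in controls A, B and C. There were 4 each in the loci of bbg, a PDZ-domain gene, mtgo, a fibronectin type III gene, and sky, a Rab GTPase-activating gene; 2 of those of sky (chr2L:20869088-20869541 and chr2L:20869939-20870945) lay in its flank, at gene ends of its neighbours. In the bbg locus the samples had peaks in 7, 14 and 12 of 15 regions in controls A, B and C and 8, 8 and 7 in the H1 RNAi samples. There were 3 each in the loci of tai, a co-activator gene of the ecdysone receptor, pum, an RNA-binding repressor gene, nuf, a Rab11 adaptor gene, and dpr12. Of these 8 genes, dpr12 was the one with no region called in all 6 samples: its 8 regions had peaks in 0, 7 and 5 cases in controls A, B and C and in 0, 1 and 0 cases in H1 RNAi A, B and C. The highest-ranked of the dpr12 regions (chr2R:5844780-5845693) stood at percentiles 30.5 and 53.6 in controls B and C. The region in pum called in all 3 controls (chr3R:9190006-9190742) stood at 15.1, 50.7 and 64.6 in controls A, B and C, with folds of 3.31, 3.58 and 5.95, and was 28581 bp from the nearest H1 RNAi peak.

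Genes were next grouped into 34 lists by pathway, complex or cell type. Over all regions in gene loci, 5.49% of 10597 were control-only. The lists' shares had a median of 4.55% and ran from 0 to 11.1%; they were not tested, and 29 lists had 1 or more control-only regions. A region can lie in several loci and so count in several lists.

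Among the lists of cell types, intestinal progenitors had 1 of 52 regions, in Sox100B, a Sox factor gene of stem cells and enteroblasts (chr3R:31082345-31083634, percentiles 16.02 and 13.8 in controls B and C). The progenitor list also had 2 H1 RNAi-only regions, at Sox21a and zfh1. Enteroendocrine genes had 2 of 34, at scrt, a Snail-family neural factor, and at svr, a carboxypeptidase gene. Enterocyte and digestive enzyme genes had 3 of 48, at GATAe, at nub, the POU factor gene that marks enterocytes (21.3 and 8.61 in controls B and C), and at lab, the homeotic gene of copper cells (6.05 and 5.21). Markers of other cells had 3 of 51 for visceral muscle, namely 1 in the myogenic factor gene Mef2 and 2 in the RNA-binding gene how, and 2 of 30 for neurons, at ChAT and elav. Hemocytes had 3 of 27, at ush, at NimC1, a phagocytosis receptor gene, and at lz, a Runx factor gene that ranked at 3.68, 60.5 and 35.2 in controls A, B and C. Trachea had 1 of 10, at Gasp, and female germline and follicle cells 1 of 22, at bgcn. The lists of the fat body and of the male germline had none.

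Signalling lists held 0 to 6 control-only regions each. The Notch pathway had 3 of 66, at mam, at Nedd4, a ubiquitin ligase gene, and at kuz, which encodes the protease that cuts Notch at the cell surface. The E(spl) complex of Notch targets had 1 of 10, at E(spl)m2-BFM. The Wingless pathway had 5 of 76, in the kinase gene sgg and in the receptor genes fz, fz2 and fz3. The Dpp/BMP pathway had 4 of 76, at shn, at the antagonist gene sog, at the receptor gene wit and at scaf. The Hippo pathway had 3 of 66, at its target genes CycE and Diap1 and at vito. EGFR and Ras signalling had 2 of 119, at the adaptor gene drk and the kinase gene Raf. The list of JNK, apoptosis and DNA damage genes had 2 of 80, at msn and Diap1, insulin and TOR 1 of 65, at S6k, and IMD and antimicrobial genes 1 of 36, at the homeobox gene cad. The ecdysone response had 6 of 157, at Blimp-1, Eip93F, Eip75B, Eip63E and Hr38, and JAK/STAT had 0 of 37.

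Among chromatin and developmental lists, regulators known as Polycomb targets had 11 of 135, or 8.15%. Their 4 highest-ranked were in the homeobox genes ap (48.0 and 37.7 in controls B and C) and inv (36.3 and 36.8), at the Sox factor gene Sox15 (35.5 and 20.5) and in the eye selector gene ey on chromosome 4 (22.4 and 11.8). All 11 were called in 2 controls, and the list had 5 H1 RNAi-only regions. Polycomb group genes had 0 of 53. Nucleosome remodelling genes had 2 of 77, at Mi-2 and Bap170, and the list of HP1 and H3K9 methylation 3 of 39, at HP1b, ADD1 and Su(var)3-3. The replication-dependent histone genes had no region in any sample, which is the absence of a call and not of openness.

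Housekeeping lists ranged on both sides of 5.49%. Mitochondrial ribosomal protein genes had 9 of 115, or 7.83%, and the highest-ranked of the 9, at mRpS18B, stood at percentiles 59.0 and 39.8 in controls B and C. Cytoplasmic ribosomal protein genes had 5 of 151, or 3.31%, among them RpL27 at 10.3, 40.5 and 39.8 in controls A, B and C. Genes of the actin cytoskeleton and adhesion had 11 of 151, or 7.28%, in 9 genes: Lasp, Vinc, cher, chic, kst, alpha-Spec, mew, Fas3 and mys. Cell cycle and replication genes had 4 of 68, at aurB, the kinase gene of chromosome segregation, at CycE and 2 at the E2F repressor gene E2f2. The proteasome had 1 of 57, the vacuolar proton ATPase 1 of 30, heat shock proteins 1 of 29 and the circadian clock 2 of 56. Many of these regions lay where the loci of 2 or more genes meet, so the gene of a list is not always the nearest one.

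Of the 669 control-only regions, which by the rule have no H1 RNAi peak, 4 had peaks with a fold of at least 4 in 2 or more controls. They were the regions of plum, Blimp-1 and chinmo and one in CG15186 (chr3R:6481713-6483000), the highest-ranked of those called in all 3 controls, at 63.9, 64.1 and 74.1 in controls A, B and C. With that minimum in all lists the rule found 42 regions and the reverse rule 371. The median fold of a list was below 4 in controls A, B and C (3.90, 3.04 and 3.93) and in H1 RNAi C (3.61). It was above 4 in H1 RNAi A and B (4.22 and 4.63), so this minimum did not cut the lists evenly. With the lists cut to their 6142 highest-ranked peaks, the rule found 259 and the reverse rule 196, and with a −log10 q of at least 10 it found 879 and 44. Without control A the counts were 632 and 137, without control B 82 and 352, and without control C 108 and 176. With a control left out, the rule needs a peak in both of the other controls. The reverse rule still needs 2 of 3 H1 RNAi samples and has fewer controls to be absent from, so these counts are not like for like. The excess of control-only over H1 RNAi-only regions turned in 3 of these settings.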

How the data were processed

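Peak lists of 6 ATAC-seq samples were used, 3 control and 3 H1 RNAi, grouped by their titles in the labels, which describe replicates as separate pools of guts. The submitters' processing notes name MACS2, Picard, Bowtie2 and Trim Galore and the dm6 build. Not given in the sources used here are the order, versions and settings of these tools and any Tn5 shift. The deposited lists, 1 per sample, give each peak's coordinates (other units), the authors' score, their fold enrichment (a ratio) and the −log10 of its p-value and q-value. Peak heights were not compared between samples, and read totals were not used here.

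Peaks were merged, placed and counted with Python 3.11.15, pandas 2.3.3, numpy 2.4.6 and scipy 1.17.1, and plotted with matplotlib 3.10.9. Summit coverage and background were solved from the deposited fold (with a pseudocount of 1) and p, within 0.02 fragments of a whole number for 99.97% to 100% of peaks per list. The position of a region is the summit of its peak with the lowest q. Genes came from the RefSeq gene table of the Release 6 assembly, which gives no strand or exons; the planned motif search and the printing of sequence were not run for want of a genome sequence. Locus counts include protein-coding genes.

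No test was made, since the rule used the comparison of the groups. The merging of peaks and both rules were tested on simulated lists of well-separated regions, where every planted region of both kinds was found. Positions, loci, distances and gene lists were not part of that test. The members, the gene lists and the naming rule were chosen with earlier results of these data known, and list symbols were matched to the gene table after the files were seen. Named were up to 12 regions called in 3 controls and 12 called in 2, ranked by their lowest percentile, the 5 widest, the 8 genes with the most regions and up to 4 regions per list, at genes known by more than a CG or CR number; fz2, Hr38, byn and other list members are named only as counted. The region of CG15186 was chosen after its values were seen. Alternatives were lists of equal length, a minimum −log10 q of 10, a minimum fold of 4, a reciprocal overlap of 50%, summits within 150 bp, 3 of 3 controls, the major arms, a gene-end window of 1000 bp, the midpoint of a region, and leaving out each sample.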

Additional observations from a re-analysis of the deposited data

How the results depend on the processing

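The 5 summary values (669 control-only regions, 125 H1 RNAi-only regions, 31.2% of control-only regions at gene ends, 12.5% between genes and a median width of 484 bp) depended on how peaks were filtered and shared. With a −log10 q of at least 10 the first count was 879, with 44 H1 RNAi-only regions, 49.6% at gene ends, 8.04% between genes and 678 bp; 72 of the 669 were among the regions found. A fold of at least 4 gave 42 and 371, with 43.9% at gene ends and 739.5 bp, and 4 of the 669. Equal list lengths gave 259 and 196, with 43.5%, 8.24% and 618 bp, and 69 of the 669. A minimum on peaks also removes H1 RNAi peaks, so regions called weakly in H1 RNAi samples enter the set. The median fold of a list ran from 3.04 in control B to 4.63 in H1 RNAi B, so a common fold minimum did not cut the lists evenly. Reciprocal overlap of 50% gave 1409 and 727, with 37.4%, 8.04% and 710 bp, and summits within 150 bp gave 761 and 532, with 39.7% and 9.18%. Requiring 3 of 3 samples gave 73 and 22, with 25.7% at gene ends. A gene-end window of 1000 bp gave 37.5%. Leaving out 1 sample at a time gave 82 to 1440 control-only regions, 26 to 352 H1 RNAi-only regions, 24.1 to 45.9% at gene ends, 9.18 to 13.8% between genes and 442.5 to 497 bp. The lowest count, 82, came without control B, and without control C it was 108. The highest, 1440, came without H1 RNAi B. A group with a sample left out needed a peak in both of its other samples, while the other group still needed 2 of 3. The counts of the 2 rules are thus not like for like in these settings. The major arms alone, and leaving out control A or H1 RNAi A, moved none of the 5 values past the tolerance used to judge them, which was 1.5-fold for counts. The midpoint of a region was applied only to the shares at gene ends and between genes, and it moved neither. Apart from what the filters do by construction, the cause was not tested. Absence from a list is the absence of a call and not of openness. No paired analysis was made, since the results come from no test.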

Other observations

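The set also held 11 regions on the sequence that the lists name TE, 6.08% of the 181 regions there, which carries no annotated gene. Their median width was 795 bp. The local background differed among them: in the highest-ranked, with percentiles of 41.8, 72.9 and 51.7 in the controls (A, B and C), it reached 113, 427 and 206 fragments per base. Its folds were 1.64, 1.73 and 1.74. In another, called in controls A and B, the background was 6.996 and 33.8 and the folds 3.63 and 2.24. Unplaced scaffolds held 96 regions and no control-only region, but 5 H1 RNAi-only ones. The X chromosome held 15.2% of the control-only regions, 21.6% of the H1 RNAi-only regions and 16.9% of all regions.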
